A study of Mus musculus with 37 samples.

Results

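Retnla-high cells were single adipose tissue macrophages in which Retnla, the gene for RELMα (resistin-like molecule alpha), reached 100 FPKM or more. FPKM (fragments per kilobase of transcript, scaled to the mapped fragments of a library) is the deposited measure of RNA level. Of 37 sorted cells, 35 were compared and 8 of these were Retnla-high (22.9%, exact Clopper-Pearson 95% interval 10.4% to 40.1%, which covers the sampling of cells only). The other 27 were Retnla-low. Cells 7 and 27 were left out because they held fibroblast genes. The sides were chosen by the measured Retnla value, so its values below are a description.

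All cells carried 1 set of labels, and nothing separates the sides but the measured gene. They were sorted from epididymal white adipose tissue of male, age-matched C57BL/6J mice kept on a high-fat diet (60% of energy from fat, 20% from carbohydrate and 20% from protein). Collagenase treatment of the minced fat lasted 30 min, and polyadenylated RNA of each cell was prepared on a Fluidigm C1 chip, which captures cells singly, with Nextera XT libraries. The sources used here do not give the age, the time on the diet, the sorting gate or the animal behind each cell. The 35 cells therefore count as 1 sample, and no p-value or standard error was computed.

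RELMα is a small secreted protein of the resistin family. Macrophages make it when interleukin 4 or interleukin 13 acts through the IL-4 receptor and the transcription factor STAT6, together with C/EBP proteins, and it is widely used as a marker of alternative activation along with Arg1, Chil3 and the mannose receptor Mrc1. In fat of obese mice, macrophages that surround dying adipocytes take up lipid and carry genes such as Cd9, Trem2, Lpl, Fabp4 and Plin2, whereas other macrophages of the depot carry resident-type scavenger receptors.

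The 250 bases before the Retnla transcription start are printed because both kinds of sites through which the IL-4 pathway is known to act on this gene can be searched in them. The sequence is from RefSeq on the build GRCm38.p6, chr16:48842359-48842608, plus strand, with 3 motif matches in capitals.
Retnla promoter: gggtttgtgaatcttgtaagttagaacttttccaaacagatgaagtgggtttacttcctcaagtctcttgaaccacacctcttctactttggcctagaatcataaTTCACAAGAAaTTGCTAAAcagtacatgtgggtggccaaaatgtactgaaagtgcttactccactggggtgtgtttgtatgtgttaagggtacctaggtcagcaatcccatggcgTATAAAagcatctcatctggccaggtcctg
The first match, TTCNNNNGAA, has the spacing that STAT6 prefers and lies 145 to 136 bases before the start. The second, TTGCNNAA, is the outer part of a C/EBP site and lies 134 to 127 bases before it, with no overlap with the first. A TATAAA box lies 30 to 25 bases before the start. Searched on both strands, TTCNNNNGAA was in 6.76% of the promoters of 27025 genes, TTGCNNAA in 10.8%, and both together in 0.873%. TATAAA was in 14.3%. These matches are letters in a window and do not show binding.

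Retnla spanned a very wide range even among the cells above the threshold. The 8 cells held 326 FPKM (cell 24), 647 (cell 18), 1021 (cell 25), 4005 (cell 17), 6913 (cell 36), 20706 (cell 2), 21485 (cell 29) and 25703 (cell 26). The lowest of the 27 Retnla-low cells held 1.15 FPKM, the median one 6.16 and the highest, cell 33, 76.7. The threshold thus fell between cell 33 and cell 24, the members just outside and just inside it. Cells 7 and 27 held 6.53 and 39.1 FPKM, and 26 of the 27 Retnla-low cells were at or below the higher of these.

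In cell 29 Retnla was the most abundant gene of the cell, and in the other Retnla-high cells it ranked between 6 and 364. Among Retnla-low cells its rank lay between 478 and 1964. As a share of all FPKM in a cell, Retnla took 0.0177% to 6.59% on the high side and 0.000369% to 0.0303% on the low side. By this share cell 24 sat below cell 33. With every cell scaled to the same FPKM sum, cell 24 held 56.5 FPKM and cell 33 held 96.6, so 7 cells passed 100 FPKM. The nearest relatives of the gene gave no comparable signal: Retn and Retnlb were listed at 0 in all 35 cells, and Retnlg stayed below 1 FPKM.

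**Figure D1:**
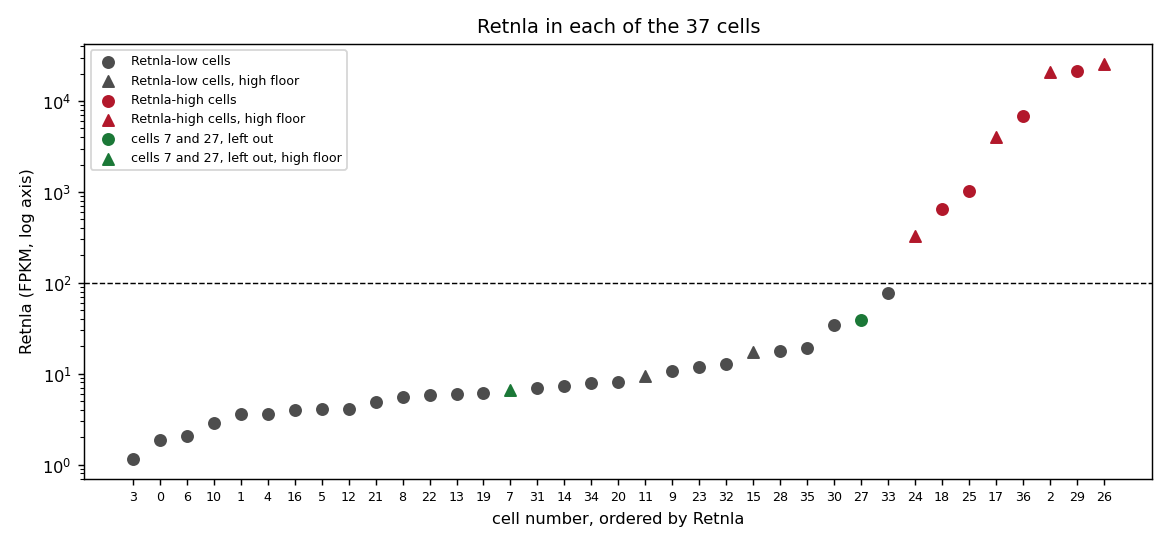
Retnla in each of the 37 cells, on a log scale of FPKM, ordered by value, with the threshold of 100 FPKM drawn as a dashed line and triangles for cells whose smallest values above 0 were raised (high floor). The 8 Retnla-high cells lie between 326 and 25703 FPKM, and the Retnla-low cells between 1.15 and 76.7.

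The sides also differed in how the libraries looked. The FPKM sum was 247234 to 1841666 (median 342491) in Retnla-high and 225528 to 618604 (median 303084) in Retnla-low cells. A sum over 2 times the median was seen in 3 high cells (2, 24 and 26) and in 0 low cells. In 4 of the 8 high cells (2, 17, 24 and 26) and 2 of the 27 low cells the smallest values above 0 were themselves raised: their 5th percentile was over 4 times the median cell's. These are called high-floor cells here, and such a floor leaves less room to see a low value. Genes at 1 FPKM or more numbered 1586 to 2464 (median 1884.5) on the high side and 1224 to 2769 (median 1753) on the low side. Deposited FPKM keep no read depth, so depth behind each value is unknown. The cell numbers were also split into 0 to 19, with 3 high cells, and 20 to 36, with 5, a division that no label marks. The Retnla-low median was 4.08 FPKM in the 16 low cells of the first and 11.8 FPKM in the 11 of the second. Cells 2, 24 and 26 also held the highest value of the 35 cells for several genes described below. These included Emr1, Mrc1 and Trem2 in cell 2, Sepp1 in cell 24, and Lpl and Clec10a in cell 26. Those values are not scaled to the FPKM sum. The part of these properties in the differences and single-cell values below was not tested. Values without the high-floor cells stand beside some of the results, not all.

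Both sides carried macrophage genes. Of 22 markers on the macrophage list, Retnla-high cells had 14 to 21 (median 18) at 1 FPKM or more and Retnla-low cells 15 to 21 (median 18). The median difference over the 21 measured markers was −0.33 on the log2(FPKM + 1) scale, Retnla-high minus Retnla-low, against −0.06 over all genes measured. Of the 21, 0 passed the size rule given below. Without the high-floor cells the median was −0.02 over 20 measured markers, against −0.21 over all genes. Emr1, which encodes the macrophage marker F4/80, was 0.126, 12.6 and 1470 FPKM (lowest, median, highest) in Retnla-high cells and 0.392, 148 and 711 in Retnla-low cells. Both the highest and the lowest Emr1 of the 35 cells were on the high side, in cells 2 and 18. Cd68, a lysosomal glycoprotein of macrophages, was 67.3, 525 and 13901 FPKM in Retnla-high cells and 0.924, 617 and 4567 in Retnla-low cells. Csf1r, the receptor for the growth factor CSF1, was 0.390, 46.9 and 451 FPKM against 2.16, 77.9 and 775.

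Markers of other cell types were scarce on both sides. The T cell, B cell, NK cell, neutrophil, eosinophil and mast cell, adipocyte and endothelial lists had at most 1 gene at 1 FPKM or more in any of the 35 cells, and the fibroblast list at most 2. Summed fibroblast-list FPKM was 0.128 to 2164 (median 3.13) in Retnla-high cells and 0 to 580 (median 1.06) in Retnla-low cells, and summed neutrophil-list FPKM was 0 to 501 and 0 to 55.5. On the dendritic cell list of 13 genes, Flt3, Xcr1, Clec9a and Ccr7 were listed at 0 in all 35 cells and Zbtb46 was below 1 FPKM. At least 3 genes of that list were at 1 FPKM or more in 2 Retnla-high and 6 Retnla-low cells. Its summed FPKM was 26.5 to 961 (median 435) in Retnla-high cells and 0.224 to 709 (median 21.5) in Retnla-low cells, a sum made mostly of Batf3, Irf8, Tcf4 and Cd209a on the high side. Its part in the differences was not tested.

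Of 4368 genes other than Retnla at 1 FPKM or more in at least 5 cells, 20 (0.458%) were higher and 12 (0.275%) lower in Retnla-high cells by the size rule. That rule asked for a mean difference of at least 2 on the log2(FPKM + 1) scale, and for the same direction in at least 80% of all pairs of 1 high and 1 low cell. Because of the added 1 FPKM, the scale understates the change of low genes. The difference alone was met by 151 genes (3.46%) in the higher direction and 104 (2.38%) in the lower one. With every cell scaled to the same FPKM sum and the cells of each side kept, 10 of 4223 genes were higher and 26 lower. The median difference of all genes went from −0.06 to −0.27. Of the 20 genes, 10 were called again under that scaling, and of the 12 genes 11. Without the high-floor cells (4 against 25 cells), 66 of 3638 genes were higher and 35 lower, with 7 of the 20 and 7 of the 12 among them.

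**Figure D2:**
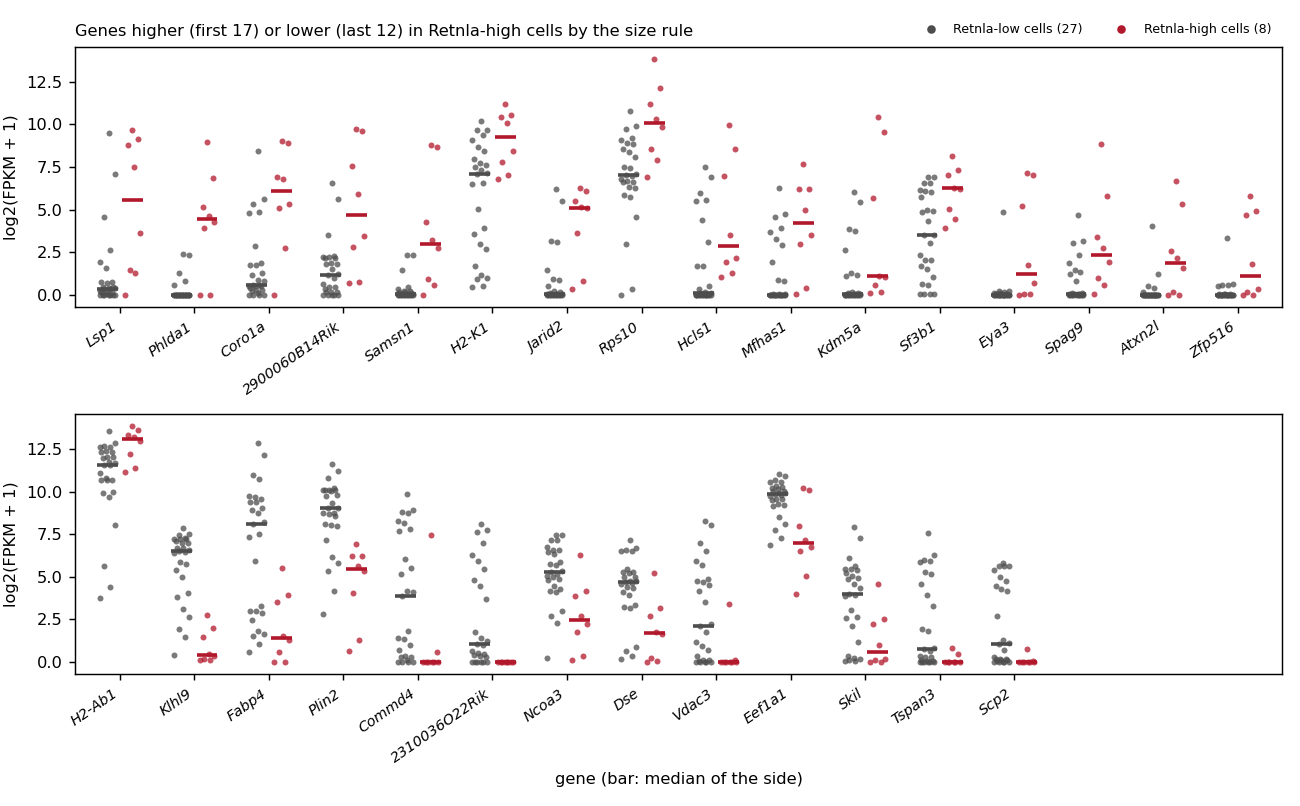
Level of 17 genes higher and 12 genes lower by the size rule, as log2(FPKM + 1), in the 27 Retnla-low cells (grey) and the 8 Retnla-high cells (red), 1 point per cell, with bars at the side medians. Lsp1 (3.96) is among the largest differences upward and Klhl9 (−4.68) has the largest downward, and the points of the sides overlap in each gene drawn.

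Fabp4 and Plin2 were 2 of the 12 genes (0.275% of all compared) lower in Retnla-high cells by the size rule. Fabp4 encodes a cytosolic fatty acid carrier. In cells 2 and 18 it was listed at 0, and cells 25, 29, 36, 26, 17 and 24 held 0.522, 1.48, 1.89, 10.6, 14.4 and 45.2 FPKM. In Retnla-low cells it ran from 0.499 through a median of 272 to 7516 FPKM. No Retnla-high cell reached 100 FPKM, which 16 of 27 Retnla-low cells did. The sides overlapped, since other Retnla-low cells were as low as the high ones. The difference was −4.59, and a Retnla-high cell had the higher value in 16.2% of pairs.

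Plin2 encodes perilipin 2, which coats lipid droplets. It was 0.564 FPKM in cell 18, 1.43 in cell 29, 15.7 in cell 26, 39.4 in cell 2, 49.0 in cell 36, 73.1 in cell 24, 74.7 in cell 25 and 121 in cell 17. Retnla-low cells held 6.10 to 3177 FPKM with a median of 520, so the highest Retnla-high cell was still well under the low-side median. Plin2 reached 100 FPKM in 1 of 8 Retnla-high cells and in 22 of 27 Retnla-low cells. The difference was −4.04. Without the high-floor cells the differences were −5.90 for Fabp4 and −5.26 for Plin2, larger than with them. Both kept their sign in all 23 other settings, between −6.67 and −3.31 for Fabp4 and between −5.26 and −3.33 for Plin2.

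The CD9 lipid-associated list, which marks macrophages loaded with lipid, lay toward lower values. Of its 16 measured genes, 14 had a difference below 0 and 2 above, with a median of −1.61 against −0.06 for all genes, and Fabp4 and Plin2 were the 2 that passed the size rule. The mean log2 level over the measured genes of the list was 0.91, 2.81 and 4.51 (lowest, median, highest) in Retnla-high cells and 1.87, 4.80 and 7.61 in Retnla-low cells. All 8 Retnla-high cells were below the low-side median, but not by the same amount. Cells 24, 26 and 2 were nearest to it (−0.29, −0.66 and −0.91), with 15, 16 and 16 of the 27 Retnla-low cells above them. These were also the cells with an FPKM sum over 2 times the median, and each was a high-floor cell. With every cell scaled to the same FPKM sum the list median was −2.47, against −0.27 for all genes. Cell 18 was farthest (−3.89), below all 27. The median difference lay between −2.51 and −1.17 in the other settings and was below the all-gene median in each of the 23.

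Other members of that list overlapped widely between the sides. Trem2, a lipid-sensing receptor, was at 0 in cells 17 and 26, below 1 FPKM in cells 18, 25, 29 and 36, 37.4 FPKM in cell 24 and 5403 FPKM in cell 2, the highest of all 35. Retnla-low cells held 0 to 1142 FPKM of Trem2 with a median of 74.9, and 13 of 27 reached 100 FPKM. Atp6v0d2, a subunit of the vacuolar proton pump, was 0, 0.0758 and 3.76 FPKM in Retnla-high and 0, 6.86 and 493 in Retnla-low cells. The tetraspanin gene Cd9 was 0, 2.35 and 495 FPKM in Retnla-high and 0.0697, 32.2 and 1241 in Retnla-low cells. Lpl, the secreted lipoprotein lipase, differed little by mean (−0.33), and its highest value of the 35 cells, 4171 FPKM, was in Retnla-high cell 26. Itgax, the gene of the integrin CD11c, reached 1 FPKM in 2 cells of each side and did not pass the filter.

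**Figure D3:**
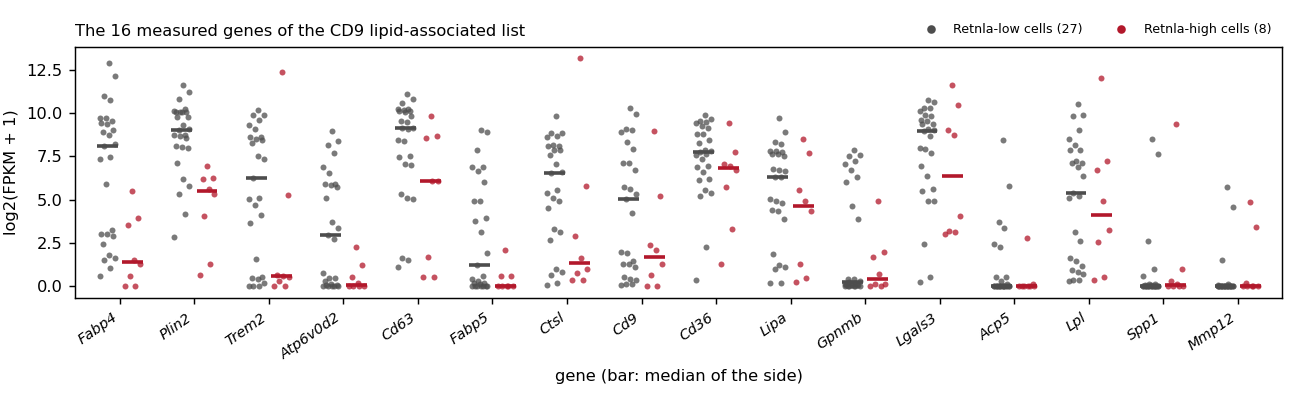
Level of the 16 measured CD9 lipid-associated genes, as log2(FPKM + 1), in the 27 Retnla-low cells (grey) and the 8 Retnla-high cells (red), 1 point per cell, with bars at the side medians. Fabp4 and Plin2 separate the sides most, while Trem2, Ctsl and Lpl each have 1 Retnla-high cell above all Retnla-low cells.

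The lipid and cholesterol handling list had 12 of 16 measured genes below 0 and a median of −0.41. None of the 16 passed the size rule, and the median was below that of all genes in all 23 other settings. Without the high-floor cells the list median was −1.28 over 13 measured genes. Apoe, the apolipoprotein of cholesterol transport, had a difference of −2.54 that rested on 3 cells. Apoe was 15.9 FPKM in cell 25, 17.3 in cell 36 and 24.8 in cell 18, the lowest values of the 35 cells, while the other 5 Retnla-high cells held 6611 to 43756 FPKM. The lowest Retnla-low cell held 346 FPKM. Cpt1a, the carnitine carrier enzyme that commits fatty acids to oxidation, was 0, 0.0758 and 92.7 FPKM in Retnla-high and 0, 5.70 and 369 in Retnla-low cells. Scp2, a sterol carrier protein outside the list, passed the size rule with −2.07: it was below 1 FPKM in all 8 Retnla-high cells and at 1 FPKM or more in 14 of 27 Retnla-low cells.

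Among the remaining genes lower in Retnla-high cells, Klhl9, a substrate adaptor of a Cullin 3 ubiquitin ligase, had the largest difference (−4.68). It was 0.0648, 0.359 and 5.74 FPKM in Retnla-high and 0.333, 89.9 and 230 in Retnla-low cells. The other genes by the rule were Commd4 (−2.87), 2310036O22Rik (−2.60), the nuclear receptor coactivator Ncoa3 (−2.49), Dse, an enzyme of dermatan sulfate synthesis (−2.48), the mitochondrial channel Vdac3 (−2.43), Eef1a1 (−2.37), Skil, a repressor of TGF-β signalling (−2.25), and the tetraspanin Tspan3 (−2.10). Eef1a1, the elongation factor of translation, was 15.03, 125 and 1191 FPKM in Retnla-high and 116, 930 and 2136 in Retnla-low cells. Eef1a1 has near-identical copies in the genome, so its value is uncertain, and without the high-floor cells its difference was −1.35. Klhl9, 2310036O22Rik, Ncoa3, Dse and Scp2 were lower by the size rule also without the high-floor cells.

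Of the 20 genes higher in Retnla-high cells (0.458% of all compared), Lsp1, Phlda1, Coro1a, Samsn1, Jarid2 and Hcls1 passed the size rule both with and without the high-floor cells. Lsp1, a leukocyte F-actin binding protein, was 796 FPKM in cell 18, 551 in cell 36, 446 in cell 25 and 178 in cell 29, 11.6 in cell 24, 1.71 in cell 26, 1.43 in cell 17 and 0 in cell 2. In Retnla-low cells it was 0, 0.278 and 727 FPKM, with 6 of 27 cells at 1 FPKM or more. The 4 cells with Lsp1 above 100 FPKM were those without a high floor, and without high-floor cells the difference went from 3.96 to 7.53.

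Coro1a, the leukocyte coronin of the actin cortex, was 0, 74.7 and 513 FPKM in Retnla-high and 0, 0.493 and 344 in Retnla-low cells, a difference of 3.91. Hcls1, a cortactin-like actin regulator of blood cells, was 1.04, 6.98 and 978 FPKM against 0, 0.0628 and 182 (2.81). Samsn1, an SH3 and SAM domain adaptor, was 0, 6.96 and 432 FPKM against 0, 0.0391 and 4.11 (3.34), with 5 Retnla-high and 3 Retnla-low cells at 1 FPKM or more. Phlda1, a pleckstrin homology-like domain protein, was at 1 FPKM or more in 6 Retnla-high and 3 Retnla-low cells, at 0, 20.8 and 501 FPKM against 0, 0 and 4.23 (3.95). Both genes passed the filter of 5 cells only through the side where they were higher.

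Jarid2, a partner of Polycomb repressive complex 2, was at 0.265, 33.5 and 76.3 FPKM against 0, 0.0299 and 72.1 (3.28). The lysosome list, which holds hydrolases and membrane proteins of that organelle, had 11 of 24 measured genes above 0, with a median of −0.31.

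Further genes passed the size rule only with the high-floor cells included. They included 2900060B14Rik (3.60), the ribosomal protein gene Rps10 (3.19), Mfhas1 (2.76), the histone demethylase gene Kdm5a (2.62), the splicing factor gene Sf3b1 (2.62) and H2-K1 (3.31). Without these cells their differences were 0.64, 1.498, 1.91, 1.28, 2.11 and 2.00 in that order, and each then had the higher value in 63% to 80% of pairs, Mfhas1 at 80% with a difference under the rule. Eya3 (2.51) was then no longer at 1 FPKM or more in 5 cells. With all cells it reached 1 FPKM in 4 Retnla-high and 1 Retnla-low cells, and Atxn2l in 5 and 2. Both passed the filter of 5 cells only through the side where they were higher. Spag9, Atxn2l and Zfp516 were also higher by the rule, outside the 15 largest differences. Without the high-floor cells the difference of Spag9 was 0.08 with 64% of pairs, and Atxn2l and Zfp516 were no longer measured. Rps10 also has many pseudogene copies and is uncertain.

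On the MHC class II and class I lists 1 of 7 measured genes each passed the size rule, H2-Ab1 and H2-K1. Over all genes compared 0.458% were higher by the rule. Neither gene passed it without the high-floor cells. H2-Ab1, the beta chain of the MHC class II molecule I-A, was 2316 FPKM in cell 29, 2727 in cell 17, 4712 in cell 25, 7901 in cell 36, 9626 in cell 26, 10436 in cell 2, 12495 in cell 24 and 14938 in cell 18. Retnla-low cells ran from 12.7 through a median of 3081 to 12142 FPKM. No Retnla-high cell was in the low tail that some Retnla-low cells formed. The difference was 2.00, at the limit of the size rule. It was 1.95 without the high-floor cells and between 1.25 and 2.51 over all other settings.

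The partner chain did not share this difference. H2-Aa, the I-A alpha chain, was 51.1, 3031 and 7820 FPKM in Retnla-high and 7.29, 4308 and 21819 in Retnla-low cells, a difference of 0.05. H2-Eb1, the I-E beta chain, differed by 1.64, and Cd74, the invariant chain that escorts class II molecules, by 1.22, both with overlapping sides. Over the 7 measured class II genes the median was 1.22, with 5 above 0, and 4 of the 8 Retnla-high cells had a list level above the low-side median. H2-K1, a classical class I heavy chain, was 111, 701 and 2343 FPKM in Retnla-high and 0.409, 135 and 1182 in Retnla-low cells (3.31), and all 8 Retnla-high cells were above 100 FPKM. H2-D1, the other classical class I heavy chain, differed by −0.32. Class I genes share long stretches of sequence, so reads may have been split among them, and the value of each is uncertain.

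**Figure D4:**
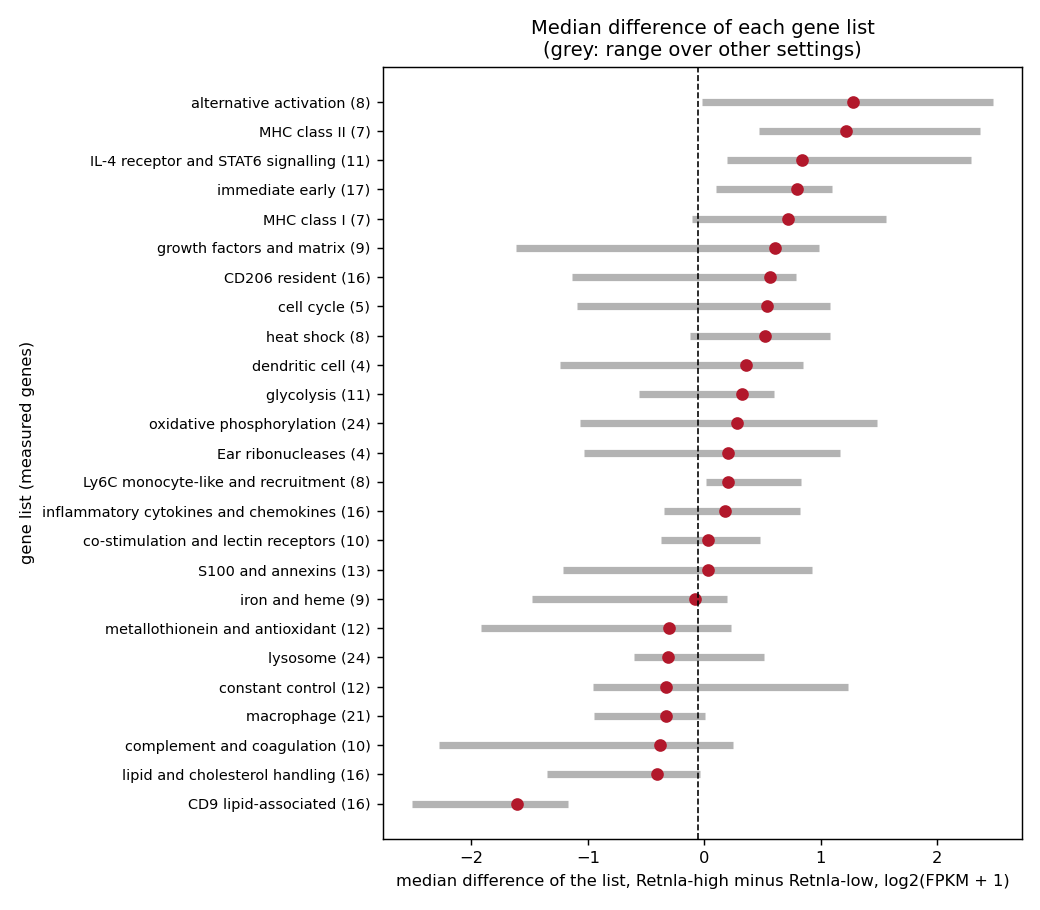
Median difference of each fixed gene list, Retnla-high minus Retnla-low on the log2(FPKM + 1) scale, with the range over the other settings in grey and the median of all genes (−0.06) as a dashed line. The CD9 lipid-associated list lies farthest below 0 (−1.61), and the alternative activation (1.27) and MHC class II (1.22) lists lie farthest above 0 among lists with at least 4 measured genes.

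Of the 20 genes of the alternative activation list in the table, 8 were measured, 6 of them above 0 and 2 below, with a median of 1.27, and 0 passed the size rule. The list level was above the low-side median in 7 of the 8 Retnla-high cells. The median lay between −0.02 and 2.48 in the other settings, above that of all genes in all 23, and was 0.16 without the high-floor cells. Chil3, a chitinase-like product of alternatively activated macrophages, and the chemokine genes Ccl17 and Ccl22 were listed at 0 in all 35 cells. Arg1, the arginase of these macrophages, was listed at 0 in all 8 Retnla-high cells and reached 2.19 FPKM in 1 Retnla-low cell.

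Mrc1, the mannose receptor CD206, was 4.69 FPKM in cell 36, 6.02 in cell 24, 24.1 in cell 26, 31.96 in cell 18, 64.4 in cell 25, 76.0 in cell 29, 574 in cell 17 and 1506 in cell 2. Retnla-low cells held 0.527, 140 and 787 FPKM. Cell 2 was thus the highest of the 35, but 100 FPKM was reached in 2 of 8 Retnla-high cells and 16 of 27 Retnla-low cells. Mgl2 and Clec10a encode the 2 macrophage galactose-type lectins. Mgl2 was 2.42, 10.9 and 2360 FPKM in Retnla-high and 0, 1.40 and 1631 in Retnla-low cells, with the highest value in cell 18. Clec10a was 0.474, 9.36 and 3369 FPKM against 0, 30.9 and 1104, with the highest value in cell 26. The transcription factor gene Klf4 had the largest difference of the list (2.79), at 0.683, 24.02 and 1237 FPKM against 0, 1.83 and 302. It missed the size rule with 79.6% of pairs.

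Genes of the pathway upstream of Retnla were thinly detected. Of 22 genes on the IL-4 receptor and STAT6 list, 11 were measured, 9 above 0 and 2 below, with a median of 0.83 and 0 past the size rule. Il4ra, the receptor chain for IL-4 and IL-13, was at 1 FPKM or more in 2 Retnla-high cells (17 and 24, at 29.6 and 144 FPKM) and 7 Retnla-low cells. Stat6 reached 1 FPKM in 1 Retnla-high and 3 Retnla-low cells. Cebpb, a C/EBP factor, was in every Retnla-high cell at 42.6, 154 and 773 FPKM and in 25 of 27 Retnla-low cells, at 0, 88.8 and 741. Ptpn6, a phosphatase that dampens cytokine signalling, was 0, 1.61 and 919 FPKM against 0.0664, 13.7 and 2964. Of the motifs printed above, TTCNNNNGAA was in 0 of the 11 higher and 1 of the 7 lower genes with a promoter in the table (Tspan3). TTGCNNAA was in 1 of 11 and 1 of 7. Over all 3383 compared genes with a promoter in the table the shares were 5.705% and 9.13%.

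The CD206 resident list gave no common direction. Of 16 measured genes, 10 were above 0 and 6 below (median 0.56), and the median turned to −1.13 without the high-floor cells. Sepp1, the selenium carrier, was 19.4, 123 and 20934 FPKM in Retnla-high and 19.7, 1707 and 5458 in Retnla-low cells. Both the lowest and the highest value of the 35 cells were thus in Retnla-high cells (36 and 24). Cell 24 also had the highest FPKM sum of the 35 cells. Maf, a transcription factor of resident macrophages, was 0.148, 5.40 and 148 FPKM against 0.0821, 61.2 and 673. F13a1, the A subunit of coagulation factor XIII, was 0.130, 13.3 and 299 FPKM against 0.0315, 0.271 and 589. None of these passed the size rule.

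The 8 Retnla-high cells were not alike. Their median Spearman correlation with each other over the measured genes was 0.275 (28 pairs), beside 0.284 between high and low cells (216 pairs) and 0.310 among low cells (351 pairs). Without the high-floor cells these were 0.322, 0.308 and 0.317. The pairs share cells, and the values describe these libraries only.

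Several Retnla-high cells held some markers, but not others, of recruited or antigen-presenting cells. Cells 18, 25 and 36, the 3 with the lowest Apoe, held Ccr2, the chemokine receptor of recruited monocytes, at 105, 68.6 and 220 FPKM. Cell 24 held 163 FPKM of Ccr2 and the other 4 cells 0 to 5.64. In Retnla-low cells Ccr2 was 0, 0.115 and 145 FPKM, with 2 of 27 at 100 FPKM or more. Batf3, a transcription factor best known in dendritic cells, was 843, 152 and 129 FPKM in cells 18, 25 and 36. Each value was above every Retnla-low cell (highest 106), and cell 2 held 415 FPKM. Irf8 and Tcf4, of the same dendritic cell list, were below 1 FPKM in cells 18, 25 and 36. On the high side Irf8 was highest in cell 26 (702 FPKM) and Tcf4 in cell 24 (348 FPKM). Cells 18, 25 and 36 were set together after their values were seen. Their MHC class II list levels of 9.93, 9.49 and 9.53 compare with a low-side median of 8.31, and 1 to 3 Retnla-low cells were above each. Ear2, an eosinophil-type ribonuclease also seen in macrophages, was 780 FPKM in cell 18 and 174 in cell 36, and its near-identical relatives make it uncertain. Ly6c2, a monocyte marker, reached 1 FPKM in 1 Retnla-high and 0 Retnla-low cells.

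Cell 18 stood farthest from the macrophage list. It had the lowest list level of the 35 cells (4.99, low-side median 6.62), the lowest Emr1 and, at 4.62 FPKM, the lowest C1qb, a complement subunit of tissue macrophages. It also held 118 FPKM of the lectin gene Cd209a. Cd209a and C1qb lie outside the rule for named genes and were chosen after their values were seen. Cells 25 and 36 held C1qb at 7594 and 1443 FPKM.

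Resident-type genes were high in some Retnla-high cells, without a clean split from the cells described above. Cell 29 had the highest CD206 resident list level of the 35 cells, 7.95 against a low-side median of 3.50. It held Fcna, a ficolin of the complement lectin pathway, at 1056 FPKM and Lyve1, a hyaluronan receptor, at 293 FPKM, both the highest of the 35 cells, and Folr2, a folate receptor, at 771 FPKM. The highest Fcna among Retnla-low cells was 2.19 FPKM. Folr2 was also 599 FPKM in cell 25, beside 518 in cell 17 and 31.1 in cell 2. Lyve1 was 53.9 FPKM in cell 17 and 0 in cells 2 and 25. Cells 17 and 2 had list levels of 5.57 and 5.39, and 2 Retnla-low cells were above each. Cells 18 and 36 lay below all 27 Retnla-low cells on this list, at 1.42 and 0.81. Cd163, a scavenger receptor of resident macrophages, was 59.9 FPKM in cell 29, the highest on that side, beside a highest of 49.0 on the low side.

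**Figure D5:**
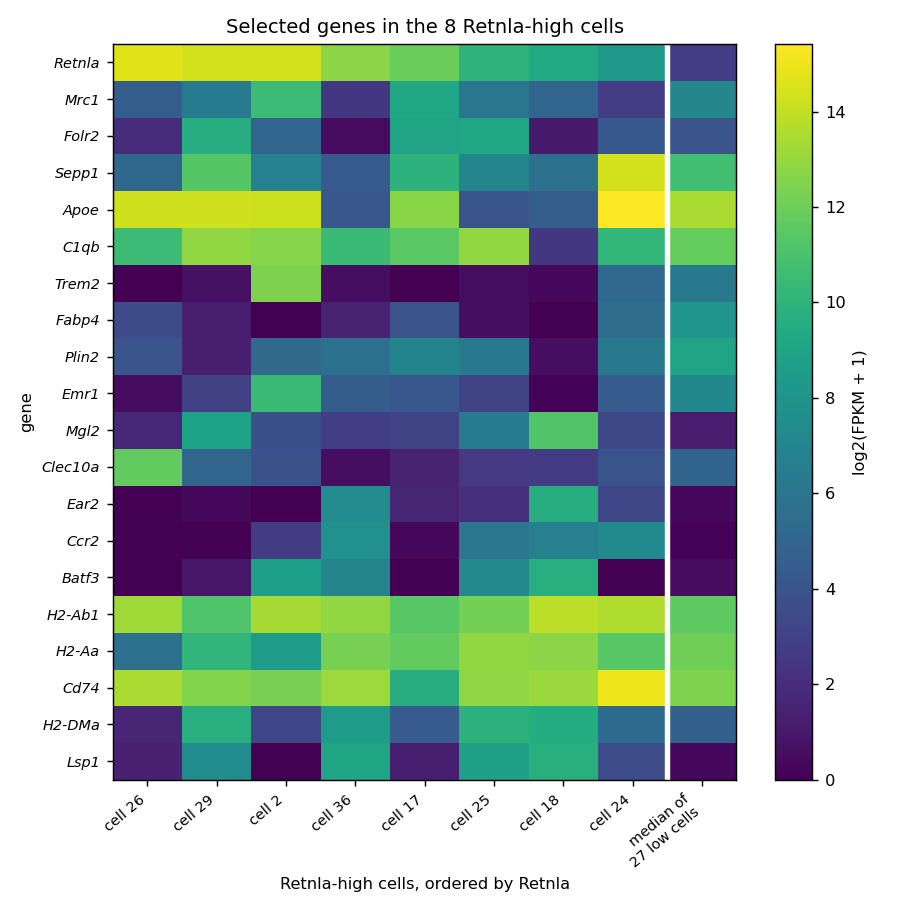
Level of selected genes in each of the 8 Retnla-high cells, ordered by Retnla, as log2(FPKM + 1) on the colour scale, with the median of the 27 Retnla-low cells in the last column. Apoe is low in cells 18, 25 and 36, which hold Ccr2 and Batf3, and Fabp4 is below the Retnla-low median in every Retnla-high cell.

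Across the 35 cells the genes with the highest Spearman rho with Retnla included Ube3c (0.66), Impa1 (0.63), Add3 (0.62), 2900060B14Rik (0.61), Mfhas1 (0.60), Samsn1 (0.59), Kdm5a (0.56), Stap1 (0.55) and Lsp1 (0.55). They are from the 10 highest values among 4368 genes. The Retnla values that define the sides enter here again, so these values are a description only. Several were detected in few cells: Ube3c was at 1 FPKM or more in 4 Retnla-high and 1 Retnla-low cells. Impa1 was so in 4 and 2, Add3 in 6 and 4, Samsn1 in 5 and 3, and Stap1 in 4 and 4. The Retnla-low cells alone would not have taken any of these past the filter of 5 cells. Clec10a had a rho of 0.46, Mgl2 0.36 and H2-Ab1 0.38. On the opposite end, Wipf1 had −0.59, Eef1a1 −0.53, Scp2 −0.53 and Emr1 −0.51, and Plin2 had −0.39. Fabp4 had −0.19. Points in these correlations share the FPKM scaling of a cell and no p-value was computed.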

How the data were processed

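The authors deposited 1 table of FPKM for 23947 genes in 37 single cells. STAR and Cuffnorm were used with the mouse build mm9, per the submitters' processing notes; the sources used here do not give their versions, the annotation or filters. FPKM were used as deposited, and read depth is unknown. Values were compared as log2(FPKM + 1) with Python 3.11.15, pandas 2.3.3, numpy 2.4.6 and scipy 1.17.1. Genes at 1 FPKM or more in at least 5 of 35 cells were measured. A script tested on simulated data applied the size rule. Every cell is labelled as 1 group with no animal named, so sizes and counts are descriptions. The members, the 37 gene lists and the rules were chosen with earlier results of these data known. Of 547 list genes, 532 were in the table. Named genes were the 15 higher and 12 lower by the size rule with the largest differences, up to 4 genes per list with the largest difference, and defining markers. Spag9, Atxn2l and Zfp516, further genes higher by the size rule, were named as well. A list's median is taken over its measured genes, and its level in a cell is the mean log2(FPKM + 1) of these. Promoters are RefSeq sequences on GRCm38.p6, matched by symbol, and no coordinates on mm9 are given. Intervals are exact Clopper-Pearson at 95%. Doublets were not called, because callers work on counts. Results of 3 genes higher by the size rule are counted but not reported by name here.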

Additional observations from a re-analysis of the deposited data

How the results depend on the processing

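The number of Retnla-high cells was 8, and 9, 7 and 7 with a threshold of 50 FPKM, of 500 FPKM and with cells scaled to the same FPKM sum. The counts of genes by the size rule, 20 higher and 12 lower of 4368 genes compared, moved more. A pseudocount of 0.1 gave 19 lower, and a pseudocount of 10 gave 7 higher and 4 lower. Scaling, with the cells of each side kept as they were, gave 10 higher and 26 lower of 4223 genes. Leaving out cells of high FPKM sum gave 38 and 32 of 3989. A Retnla threshold of 50 FPKM, and setting values under 3% of a gene's mean to 0, each gave 7 lower. Cells 0 to 19 alone, with 3 Retnla-high cells, gave 127 higher and 101 lower of 2594 genes. Cells 20 to 36 alone, with 5, gave 61 and 61 of 2231. Leaving out 1 Retnla-high cell at a time gave 18 to 29 higher and 12 to 24 lower, of 4232 to 4284 genes. The lower count was 19, 20, 23 and 24 without cell 18, 24, 25 or 36. Settings added after seeing the data gave 66 higher and 35 lower of 3638 genes without the high-floor cells. With scaling as well they gave 72 and 34 of 3658. The cause of these shifts was not tested. No named gene that passed the size rule turned its sign in any setting that gave a value. No paired analysis was possible because all cells are of 1 labelled group. Since read depth is unknown, the smallest level that a cell could show is not known either.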

Other observations

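Of 17 measured genes on the immediate early list, which holds genes of the early response to stimulation, 13 had a difference above 0 and 4 below, with a median of 0.80 against −0.06 for all genes, and 0 passed the size rule. The median ranged from 0.10 to 1.10 over the other settings. With cells scaled to the same FPKM sum it was 0.10 with 10 of 17 genes above 0, and without cells of high FPKM sum 0.23 with 9 of 16. The AP-1 subunit gene Jund was 0, 13.2 and 1666 FPKM (lowest, median, highest) in Retnla-high and 0, 2.28 and 106 in Retnla-low cells. Ier3, an inhibitor of cell death, was 0, 116 and 1264 against 0, 0.610 and 425. Both were named for being among the largest differences of the list. Fos, another AP-1 subunit gene, was 0.980, 140 and 12042 FPKM against 1.09, 267 and 4406, a difference of 0.12. Of the 8 Retnla-high cells, 6 had a list level above the low-side median, and cell 2 was above every Retnla-low cell. Oxidative phosphorylation genes gave 15 of 24 above 0 with a median of 0.28, and the sign of this median changed over the other settings (−1.06 to 1.48). Without the high-floor cells the median was 1.44, with 20 of 24 above 0. Glycolysis genes gave 7 of 11 above 0 with a median of 0.32, which ranged from −0.56 to 0.59.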
